A study of Rattus norvegicus with 4 samples.

Results

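The heparin-binding growth factors pleiotrophin (Ptn) and midkine (Mdk) and 7 genes for proteins that bind them were examined in the 2 layers of the rat crista ampullaris, the sensory epithelium at the base of each semicircular canal that senses head rotation. The 9 genes were taken by name, as every gene probe whose current rat symbol was Ptn, Mdk, Ptprz1, Sdc1, Sdc2, Sdc3, Sdc4, Lrp1 or Ncl. They had 16 of the 33849 gene probes on the array and were 9 of the 12323 genes that could be named. Laser capture removed a superficial layer first, the hair cell layer (HC), which holds both types of hair cell together with cytoplasm of the supporting cells around them. The supporting cell layer (SC), the cell bodies on the basal lamina, was captured afterwards. Each layer had 2 single-colour oligonucleotide arrays, after linear amplification of polyadenylated RNA. Cells were chosen by morphology alone, so the HC layer is not free of supporting cell RNA. The strain, age and treatment of the animals are not given in the sources used here. Whether replicate arrays came from separate animals or separate captures is not stated, so a p-value reflects no more than the spread of these particular arrays and that spread may be technical.

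Pleiotrophin and midkine are the members of a small family of secreted, basic growth factors that hold to the sulfated sugar chains of proteoglycans in the matrix and at the cell surface. Their best known receptor is the tyrosine phosphatase zeta (Ptprz1), itself a chondroitin sulfate proteoglycan, which is also released as the secreted form phosphacan. Pleiotrophin binding lowers its phosphatase activity, so that its substrates stay phosphorylated. The syndecans (Sdc1 to Sdc4) are transmembrane heparan sulfate proteoglycans, Lrp1 is a large endocytic receptor that takes up midkine among many ligands, and nucleolin (Ncl) is an abundant nucleolar protein that also reaches the cell surface and binds both growth factors. In the inner ear, mice lacking both growth factors have been described as having impaired hearing.

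The median raw intensity was 26.5 and 17.0 on HC layer arrays 1 and 2, and 12.1 and 12.0 on SC layer arrays 1 and 2. The raw intensity is the spot brightness after the scanner software's local background correction. The software called between 39.7% and 48.8% of the gene probes above background on an array, and the lowest intensity it called detected lay between 18.9 and 20.3 raw units. The negative control spots had a median of 4.15 to 5.36 raw units and a maximum of 87.4 to 229.8. On each array the brightest of them exceeded the lowest intensity called detected. Because the arrays differ in overall brightness, levels were compared after quantile normalization between arrays, and a change is the SC layer minus the HC layer in log2 units, given with the standard error (SE) of the limma fit. With 2 arrays a layer, precision is limited by their number. Of 15 hair cell markers tested, 13 were higher in the HC layer and 0 in the SC layer. The 4 undetected in the SC layer included the tip link cadherin Cdh23, and 11 were above background on both SC layer arrays. The summed normalized intensity of the 15 was 12350 and 13270 in the HC layer and 5537 and 5261 in the SC layer. The SC layer was therefore not free of hair cell marker signal. Of 15 supporting cell markers, 6 were higher in the SC layer and 5 in the HC layer, so these markers did not separate the layers one way.

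After quantile normalization pleiotrophin, the heparan sulfate proteoglycan Sdc3 and nucleolin were higher in the SC layer. The heparan sulfate proteoglycan Sdc4 was higher in the HC layer. In the raw intensities the layers overlapped for Sdc3 and for the bright nucleolin probe, so those directions depend on the normalization. At the brightest probe of each gene, 8 of the 9 genes could be tested, 3 were called higher in the SC layer, 1 was called higher in the HC layer and 4 did not pass (limma, p-values adjusted after Benjamini-Hochberg across the 16483 tested probes, called at an adjusted p under 0.05). Among all 7768 tested genes 65.4% were called, 28.2% higher in the SC layer and 37.2% higher in the HC layer. The 4 of 8 members called lie below the background share and do not set these genes apart. Of the 11 tested member probes 6 were called, 4 higher in the SC layer and 2 in the HC layer, beside 67.4% of all tested probes (33.5% and 33.9%). The median change of the 8 tested members was 0.28, beside -0.10 for all tested genes. A layer of bulk tissue can hold fewer cells of a type or cells with less RNA each, and the arrays cannot tell these apart. Of all 16 member probes, 9 were above background on all 4 arrays and 5 on none; the 5 were not tested.

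**Figure D1:**
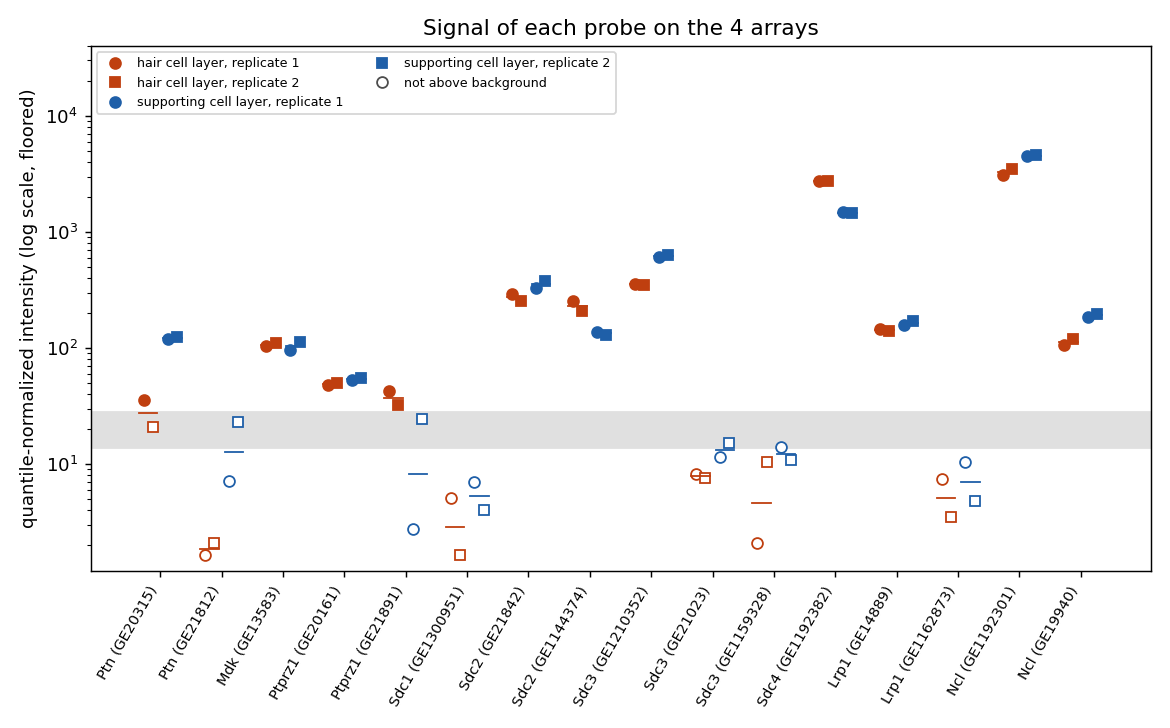
Quantile-normalized intensity (log axis) of all 16 probes on the 4 arrays; colour gives the layer, marker shape the replicate, an open marker a spot not above background, a short line the layer mean of log2 values, and the grey band the range over arrays of the lowest detected intensity. Values at the floor are drawn there. Ptn (GE20315) lies at 35.8 and 20.8 in the HC layer and at 120.0 and 124.5 in the SC layer, while Sdc4 lies at 2740 and 2724 against 1484 and 1442.

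The promoters of the 3 genes with the largest called changes are printed here to show the regulatory sequence of members that moved in opposite directions. A RefSeq promoter window of the GRCr8 build was found for 6 of the 9 genes, and the 250 bases before the start site are given, 5′ to 3′ on the gene's strand. Capitals mark matches to 7 motifs searched on both strands: the TATA box TATAAA, the CCAAT box CCAAT, the GC box GGGCGG, the E-box CACGTG, the cyclic AMP response element TGACGTCA, the AP-1 site TGACTCA and the SOX core ACAAAG. Ptn lies on the minus strand at chr4:66342333-66342582, Sdc3 on the plus strand at chr5:148249542-148249791 and Sdc4 on the minus strand at chr3:173592924-173593173.
Ptn: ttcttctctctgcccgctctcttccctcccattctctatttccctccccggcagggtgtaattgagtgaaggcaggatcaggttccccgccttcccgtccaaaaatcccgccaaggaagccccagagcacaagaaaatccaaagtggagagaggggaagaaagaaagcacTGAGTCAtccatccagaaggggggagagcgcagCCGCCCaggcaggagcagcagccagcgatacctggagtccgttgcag
Sdc3: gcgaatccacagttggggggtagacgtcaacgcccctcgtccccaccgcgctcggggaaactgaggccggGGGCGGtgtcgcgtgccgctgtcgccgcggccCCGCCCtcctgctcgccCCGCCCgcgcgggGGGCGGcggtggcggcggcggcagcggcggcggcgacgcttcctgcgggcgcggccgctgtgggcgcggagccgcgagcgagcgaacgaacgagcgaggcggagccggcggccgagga
Sdc4: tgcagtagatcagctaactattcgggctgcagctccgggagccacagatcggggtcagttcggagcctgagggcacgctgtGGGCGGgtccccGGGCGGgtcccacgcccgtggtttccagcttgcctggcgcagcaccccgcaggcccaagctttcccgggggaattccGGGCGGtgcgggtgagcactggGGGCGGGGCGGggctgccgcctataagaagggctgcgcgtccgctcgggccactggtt
The Ptn window held 1 AP-1 match, 80 bases before the start, and 1 GC box. The Sdc3 window held 4 GC boxes and the Sdc4 window 5, of which the last pair shares a base, and neither held a match to the other 6 motifs. Of all 33469 windows of the same length, 30.5% held a GC box, 4.05% an AP-1 match, 12.9% a TATA box, 34.0% a CCAAT box, 5.59% the E-box, 1.59% the cyclic AMP response element and 16.3% the SOX core. The share of G and C was 57.6% for Ptn, 80.0% for Sdc3 and 70.0% for Sdc4, beside a median of 51.2% over all windows. A match describes letters and is not a bound site.

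Of the ligands, pleiotrophin was higher in the SC layer and midkine did not pass the test. At the brighter Ptn probe (GE20315) the raw intensity was 49.5 and 22.7 on HC layer arrays 1 and 2 and 94.7 and 95.2 on SC layer arrays 1 and 2. Both SC layer arrays were above both HC layer arrays, before and after normalization, and the spot was not above background on HC layer array 2. After normalization the values were 35.8, 20.8, 120.0 and 124.5 in the same order, a change of 2.16 ± 0.31 (SE) and a 4.48-fold higher level in the SC layer (limma, adjusted p = 0.0106). The HC mean of 28.3 rests on 1 measured array of 2. The lowest detected signals were 13.9 and 18.5 on HC layer arrays 1 and 2, and the value of 20.8 on array 2 was not above background. The size of the fold is therefore uncertain. Without HC layer replicate 1 the change was 2.67 and without HC layer replicate 2 it was 1.76. In each of these fits the lone HC array is assumed to vary like the SC arrays, and the first keeps only the HC spot that was not above background. The other Ptn probe (GE21812) was above background on no array and was not tested; its normalized values were at most 2.11 in the HC layer and 7.09 and 23.0 in the SC layer.

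Midkine was detected on all 4 arrays. Its single probe (GE13583) gave normalized intensities of 103.3 and 109.7 in the HC layer and 96.7 and 112.2 in the SC layer, and the layers overlapped. The change was -0.03 ± 0.11 (limma, adjusted p = 0.815), with a 95% interval of -0.37 to 0.31 on the log2 scale. Differences inside this interval are not excluded by these arrays. The probe is named from the platform annotation, and the scanner output lists another sequence record for it. In the raw intensities midkine was lower in the SC layer (75.6 and 85.9) than in the HC layer (136.7 and 124.1), as were the medians of those arrays. Set against midkine on the same array, which removes any linear scaling of the array, the log2 ratio of the Ptn to the Mdk raw intensity was -1.47 and -2.45 in the HC layer and 0.33 and 0.15 in the SC layer. The layers did not overlap in this ratio. Over 4 arrays the exact two-sided permutation test cannot go below p = 0.333, the value it gave here and for each of the 6 such ratios computed.

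**Figure D2:**
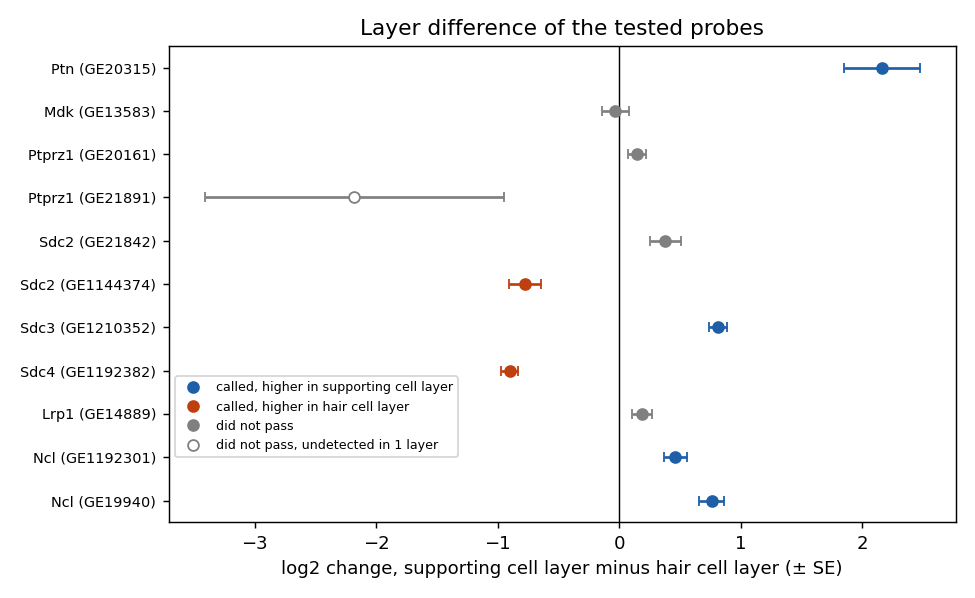
Change of the 11 tested probes, SC layer minus HC layer on the log2 scale, with its SE from limma; blue and red points were called higher in the supporting and the HC layer, grey points did not pass, and the open point was undetected in the SC layer. Ptn stands farthest to the right at 2.16, and the probe pairs of Ptprz1 and of Sdc2 lie on opposite sides of 0.

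By distance between the 4 centred log2 values, the named genes most like Ptn among 5750 others detected on all arrays at their brightest probe were Gins4, Tspan9, Eml1, Rarres1 and Naa30, at distances of 0.19 to 0.47. The closest, the replication complex gene Gins4, had normalized intensities of 64.0 and 34.0 in the HC layer and 180.0 and 193.3 in the SC layer. Likeness to a Ptn value that was not above background on HC layer array 2 is part of the measure. The changes of the 5 genes ran from 1.89 to 2.52. The ordering rests on 4 arrays and describes these arrays alone.

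The summed normalized levels of the connective tissue, endothelial and neuronal marker lists were higher in the SC layer, as Ptn, Sdc3 and Ncl were. Those of bone and cartilage, and of dark cells and melanocytes without Pmel, were also higher there. The sums of Schwann cells were near level and those of immune cells were lower. In the list of connective tissue markers, 4 of 7 tested were higher in the SC layer and 1 in the HC layer, and their summed normalized intensity was 1015 and 1025 in the HC layer and 2344 and 2413 in the SC layer. Col1a1 and Dcn, defining collagen and proteoglycan genes of fibroblasts, did not pass, and Lum, Pdgfra, Postn and Fbln1 were above background on no array. Of 10 tested endothelial and pericyte markers 8 were higher in the SC layer and 1 in the HC layer, with sums over 9 of them of 511 and 579 in the HC layer and 1618 and 1643 in the SC layer. In the list of Schwann cell markers 1 of 7 was higher in the SC layer and 3 in the HC layer, with sums of 4541 and 4574 against 4747 and 4666. The neuronal list had 4 of 6 higher in the SC layer and 2 in the HC layer, with sums of 615 and 639 against 1429 and 1453. Within these lists Fbn1, Vwf, Nefl and Nefm were called higher in the HC layer, but Fbn1, Nefl and Nefm were undetected in the SC layer. Rgs5, Esam and Emcn, called higher in the SC layer, were undetected in the HC layer. A few bright genes weigh heavily in the sums. Mean normalized intensities in the HC and SC layers were 37.8 and 574.3 for Gria2 of the neuronal list. They were 137.2 and 682.1 for Mgp and 147.2 and 728.8 for Tbx18 of the connective tissue list. Of 6 tested immune markers 2 were higher in the SC layer and 3 in the HC layer. Sums over 4 of them were 326 and 312 in the HC layer against 111 and 95.5 in the SC layer. The 3, Aif1, Cd68 and C1qa, were undetected in the SC layer. Aif1 weighs most in the sums, at means of 171.8 in the HC layer and 5.71 in the SC layer. Of 6 bone and cartilage markers 2 were called higher in the SC layer and 1 in the HC layer. Sums over 5 of them were 460 and 415 in the HC layer against 588 and 599 in the SC layer. Of 3 dark cell and melanocyte markers 2 were called higher in the SC layer and 1, Pmel, in the HC layer. Sums over 2 of them were 1247 and 1224 against 1757 and 1812. They leave out Pmel, at 2693 on HC layer array 2 and 206.1 and 200.3 in the SC layer. The part of any of these cells in the members' differences was not tested.

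The receptor phosphatase Ptprz1 had 2 probes with changes of opposite sign, and neither passed after quantile normalization. The brighter probe (GE20161) was above background on all arrays, at normalized intensities of 47.6 and 49.8 in the HC layer and 52.9 and 54.9 in the SC layer. The layers did not overlap, but the change was 0.15 ± 0.08 (limma, adjusted p = 0.166), with a 95% interval of -0.08 to 0.37. The other probe (GE21891) gave 42.95 and 32.2 in the HC layer, both above background, and 2.77 and 24.4 in the SC layer, neither above background. It was higher in the HC layer by a limit of 1.36-fold, an approximate bound set from the lowest signals detected on the SC arrays. The arrays of the SC layer differed widely and the probe did not pass (limma, adjusted p = 0.198). It was called with median scaling (limma, adjusted p = 0.00294), an offset of 50 (0.0328) and the scanner software's normalized values (4.1e-05). On the scanner software's values the change was -2.05 with an SE of 0.46, which was common to all tested member probes. That SE does not measure the spread of this probe, whose SE was 1.23 after quantile normalization. Without SC layer replicate 2 the change of this probe was -3.78. That fit keeps 1 undetected SC value and takes its spread from the HC arrays. The mean over both probes changed by -1.02 ± 0.62, which did not pass.

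Ptprz1 ligands and substrates, from a list of 22 genes, had 15 tested: 5 were higher in the SC layer, 6 in the HC layer and 4 did not pass, with a median change of 0.10. The matrix glycoprotein tenascin-C (Tnc), a ligand of the receptor, changed by -1.50 ± 0.10 and the actin regulator cortactin (Cttn) by -1.48 ± 0.13, both higher in the HC layer. The scaffold proteins Magi3 and Magi1 changed by -0.70 ± 0.08 and -0.47 ± 0.08. In the other direction beta-catenin (Ctnnb1), a substrate of the phosphatase, changed by 0.54 ± 0.08. The adhesion molecule Ncam1 was undetected in the SC layer and higher in the HC layer by an approximate limit of 7.03-fold. Nrcam, also among the 6, was undetected in the SC layer at its brightest tested probe (approximate limit 6.24-fold). Its 2 tested probes changed in opposite directions.

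The syndecans differed in direction from one gene to the next. Syndecan 4, the broadly expressed member found at focal adhesions, had normalized intensities of 2740 and 2724 in the HC layer and 1484 and 1442 in the SC layer. The layers were far apart against the spread within each, and the raw values of 3460 and 3092 against 1152 and 1080 were ordered the same way. The change of -0.90 ± 0.07 is a 1.87-fold higher level in the HC layer (limma, adjusted p = 0.00308). Syndecan 3, the large member known from neurons and neural development, was the reverse after normalization. Its bright probe (GE1210352) gave 358.2 and 350.7 in the HC layer and 610.4 and 636.2 in the SC layer, a change of 0.81 ± 0.07 and a 1.76-fold higher level in the SC layer (adjusted p = 0.00391). Its raw intensities overlapped between the layers, at 473.1 and 405.8 against 476.2 and 465.4. With the scanner software's values neither Sdc3 (limma, adjusted p = 0.0982) nor Sdc4 (0.196) was called. Their changes on those values were 0.92 ± 0.46 and -0.74 ± 0.46, with an SE common to all tested member probes. The other Sdc3 probes, GE21023 and GE1159328, were above background on no array.

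The contrast between syndecan 3 and syndecan 4 did not depend on how an array was scaled as a whole. Within each array the log2 ratio of the Sdc3 to the Sdc4 raw intensity was -2.87 and -2.93 in the HC layer and -1.28 and -1.21 in the SC layer. The mean ratio rose by 1.66 on the log2 scale from the HC to the SC layer, with an SD of 0.04 within each layer (n = 2), and the layers did not overlap (exact permutation p = 0.333, the smallest possible). This shows unequal change of the pair and does not show which of them changed.

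Syndecan 2, a member found in mesenchymal and neural cells, had a pair of detected probes that went opposite ways. The brighter (GE21842) gave normalized intensities of 290.9 and 255.5 in the HC layer and 331.6 and 379.8 in the SC layer, which did not pass at a change of 0.38 ± 0.13 (limma, adjusted p = 0.0682, 95% interval 0.00 to 0.76). With an intensity trend in the variance model, an offset of 50 or probes detected on all arrays alone, it was called. The other (GE1144374) gave 252.7 and 208.5 against 138.0 and 130.1, a change of -0.78 ± 0.13 called higher in the HC layer (adjusted p = 0.0153). That call was lost without SC layer replicate 2 (0.0542), with median scaling (0.0843), without a filter on dim probes (0.0787) and with the scanner software's values (0.284). Within arrays the log2 ratio of the brighter to the dimmer probe was 0.21 and 0.31 in the HC layer and 1.25 and 1.49 in the SC layer. The probes therefore give no single direction for Sdc2, and their mean changed by -0.20 ± 0.11, which did not pass. Syndecan 1, the epithelial and plasma cell member, was above background on no array, at raw values from -3.38 to 6.26, so no difference was detectable for it.

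Proteins that dock on the syndecan core, process its chains or bind them made a list of 16 genes with 10 tested. Of these, 3 were called higher in the SC layer, 5 in the HC layer and 2 did not pass. Among the 5, Gipc1, Fn1 and Fgfr1 were undetected in the SC layer, with limits of 0.91-fold, 0.78-fold and 1.46-fold. A limit under 1 neither shows nor excludes a difference, so the calls of Gipc1 and Fn1 are not read as an excess. The median change was -0.11, or 0.05 with genes undetected in 1 layer held at their limit of fold. The actin crosslinker Actn4 changed by -0.67 ± 0.08 and the guanine nucleotide exchange factor Tiam1 by -0.30 ± 0.07, both higher in the HC layer. The membrane linker ezrin (Ezr) changed by 0.46 ± 0.07 and the exosome pathway protein Alix (Pdcd6ip) by 0.64 ± 0.07. Heparanase (Hpse), the enzyme that cuts heparan sulfate chains, was undetected in the HC layer. It was higher in the SC layer by an approximate limit of 5.30-fold. Syntenin (Sdcbp), which binds the syndecan tail, changed by 0.09 ± 0.08 and did not pass.

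The low-density lipoprotein receptor-related protein Lrp1 did not pass the test. Its detected probe (GE14889) had normalized intensities of 146.4 and 141.3 in the HC layer and 158.3 and 169.5 in the SC layer. The SC layer arrays were the higher pair, with a change of 0.19 ± 0.08 (limma, adjusted p = 0.118, 95% interval -0.05 to 0.43). In the raw intensities the order was the opposite, 191.8 and 160.7 against 124.6 and 128.0. Its other probe (GE1162873) was above background on no array.

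Of 12 tested Lrp1 ligands and adaptors, 4 were called higher in the SC layer, 7 in the HC layer and 1 did not pass. The median change was -0.47 (-0.20 with undetected genes held at their limit). Among the 7, Mapk8ip1 was undetected in the SC layer, and its limit of 0.99-fold neither shows nor excludes an excess in the HC layer. The protease inhibitor nexin-1 (Serpine2) changed by 3.16 ± 0.07, from normalized intensities of 55.7 and 54.0 in the HC layer to 480.3 and 502.6 in the SC layer. Apolipoprotein E (Apoe) changed by 1.13 ± 0.10. Tissue plasminogen activator (Plat), whose complexes with its inhibitors are cleared by the receptor, changed by -2.14 ± 0.08. The receptor's own chaperone Lrpap1 changed by -1.87 ± 0.08, and calreticulin (Calr) by -1.36 ± 0.09, both higher in the HC layer while Lrp1 itself did not pass.

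Nucleolin was called higher in the SC layer at both probes, on normalized values. The bright probe (GE1192301) gave 3116 and 3495 in the HC layer and 4521 and 4567 in the SC layer, and the dimmer (GE19940) gave 106.2 and 119.6 against 184.9 and 197.5. The layers did not overlap at either probe. The changes were 0.46 ± 0.09 (limma, adjusted p = 0.0230) and 0.76 ± 0.10 (adjusted p = 0.00908). The call of the bright probe was lost without HC layer replicate 1 (adjusted p = 0.0701), without SC layer replicate 1 (0.0732) or replicate 2 (0.0768), with the replicate number as a block (0.0598), with median scaling (0.0507), without a filter on dim probes (0.136) and with the scanner software's values (0.151). The dimmer probe lost its call without the filter (0.0645) and with the scanner software's values (0.103). The raw intensities of the bright probe were nearly level, at 3905 and 3875 against 3941 and 3825, and overlapped. Within arrays the log2 ratio of the 2 probes was 4.80 and 4.83 in the HC layer and 4.76 and 4.68 in the SC layer. The layer means of this raw ratio differed by -0.10.

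Nucleolar partners of nucleolin, a list of 16 genes, had 12 tested. Of these, 5 were called higher in the SC layer, 2 in the HC layer and 5 did not pass, with a median change of 0.17. Among those higher in the SC layer, Wdr43 was undetected in the HC layer (approximate limit 2.67-fold). The RNA polymerase I subunit Polr1b changed by 0.93 ± 0.08 and the nucleolar GTP-binding protein nucleostemin (Gnl3) by 0.94 ± 0.09. The largest polymerase I subunit Polr1a changed by -1.34 ± 0.09 and the box C/D snoRNP protein Nop58 by -1.05 ± 0.09, both higher in the HC layer. Nolc1, a snoRNP chaperone, changed by 0.36 ± 0.08. Nucleophosmin (Npm1) lay near background and did not pass, at a change of -0.28 ± 0.68.

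The direction given for several members depended on the scaling of the arrays. Without any normalization, an alternative added after seeing the data, the median change of all tested genes was -0.79, since the SC layer arrays were dimmer, and only 21.1% of the called probes were higher in the SC layer, beside 49.7% after quantile normalization. On that scale the Ptn probe GE20315 changed by 1.50 ± 0.41 and Sdc4 by -1.55 ± 0.14, both called in the same direction as before. Sdc3 changed by 0.10 ± 0.14 and the nucleolin probes by 0.00 ± 0.12 and 0.09 ± 0.12, none past the test. Midkine (-0.69), Ptprz1 at its brighter probe (-0.50) and Lrp1 (-0.48) were called higher in the HC layer. Changes are also given relative to the median of all tested genes. Sdc3 lay 0.89 above the median without normalization and 0.92 above it with, and Ptn 2.29 and 2.27 above it. Midkine lay 0.09 and 0.07 above it and Sdc4 -0.77 and -0.80 from it. The bright nucleolin probe moved most, from 0.78 above it without normalization to 0.57 with.

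**Figure D3:**
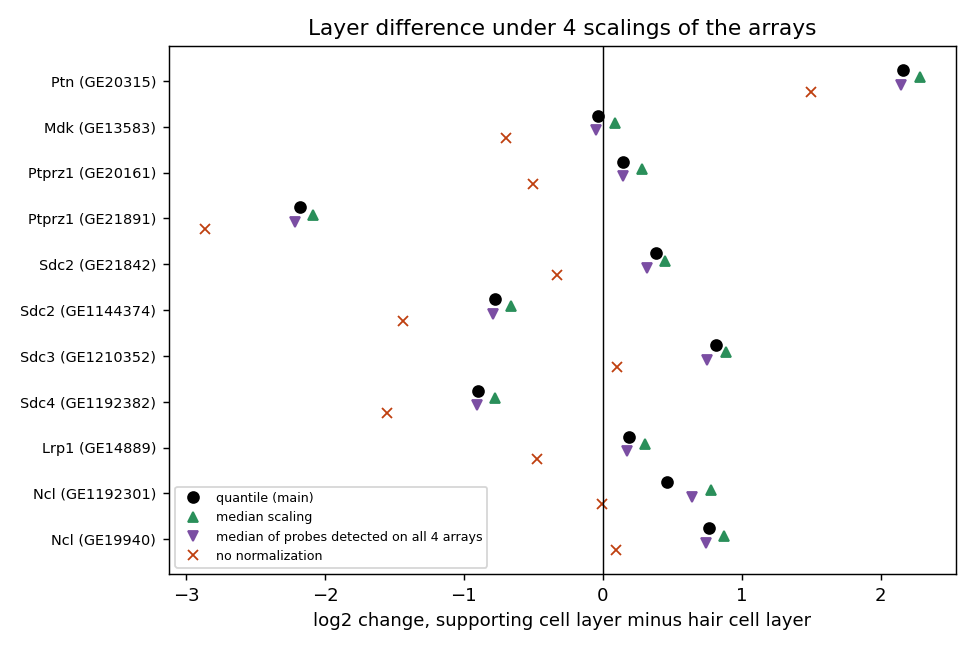
Change of the 11 tested probes, SC layer minus HC layer on the log2 scale, under 4 scalings of the arrays: quantile normalization, median scaling, the median of probes detected on all 4 arrays, and none. Each cross (no normalization) lies to the left of the other marks of its probe; Ptn stays to the right of 0 and Sdc4 to the left under all 4, while Lrp1 goes from 0.19 to -0.48.

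Among other proteins that bind pleiotrophin or midkine, 24 of 29 listed genes had a probe and 16 were tested: 6 were higher in the SC layer, 5 in the HC layer and 5 did not pass, with a median change of 0.01. Glypicans, heparan sulfate proteoglycans anchored in the membrane by a lipid, went both ways. Gpc2, a binding partner of midkine, had normalized intensities of 263.3 and 263.0 in the HC layer and 993.9 and 1440 in the SC layer, a change of 2.18 ± 0.22. Gpc1 changed by -1.57 ± 0.09. Gpc4 and Gpc3, undetected in the SC layer, were higher in the HC layer by approximate limits of 3.07-fold and 1.90-fold. The matrix chondroitin sulfate proteoglycan versican (Vcan) changed by 2.19 ± 0.14, detected on 1 of 2 HC layer arrays. Neuroglycan C (Cspg5), a transmembrane chondroitin sulfate proteoglycan, changed by -1.87 ± 0.08.

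Signalling and endocytic receptors of that list ranged from undetected to called. The tyrosine kinase Alk, a proposed pleiotrophin and midkine receptor, was above background on 1 HC layer array only and was not tested. Its normalized values were 19.4 and 21.1 in the HC layer and 5.68 and 18.1 in the SC layer. Lrp6, Lrp8 and Notch2 were above background on no array. The endocytic receptor megalin (Lrp2) changed by 0.68 ± 0.19 (adjusted p = 0.0491). The semaphorin and growth factor co-receptor Nrp1 changed by 0.89 ± 0.09, the TGF-beta co-receptor Tgfbr3 by 0.86 ± 0.15 and the integrin subunit Itgb3 by 0.36 ± 0.08, all higher in the SC layer. The midkine-binding integrin subunit Itga6 changed by -1.03 ± 0.10 and was higher in the HC layer. Its partner Itgb1 was detected in the HC layer alone, at 29.0 and 26.8, and did not pass (limma, adjusted p = 0.116). These values lie near the lowest signals detected on the SC arrays, 26.6 and 28.3. The approximate limit was 1.02-fold, so detection in the HC layer alone shows no clear difference.

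**Figure D4:**
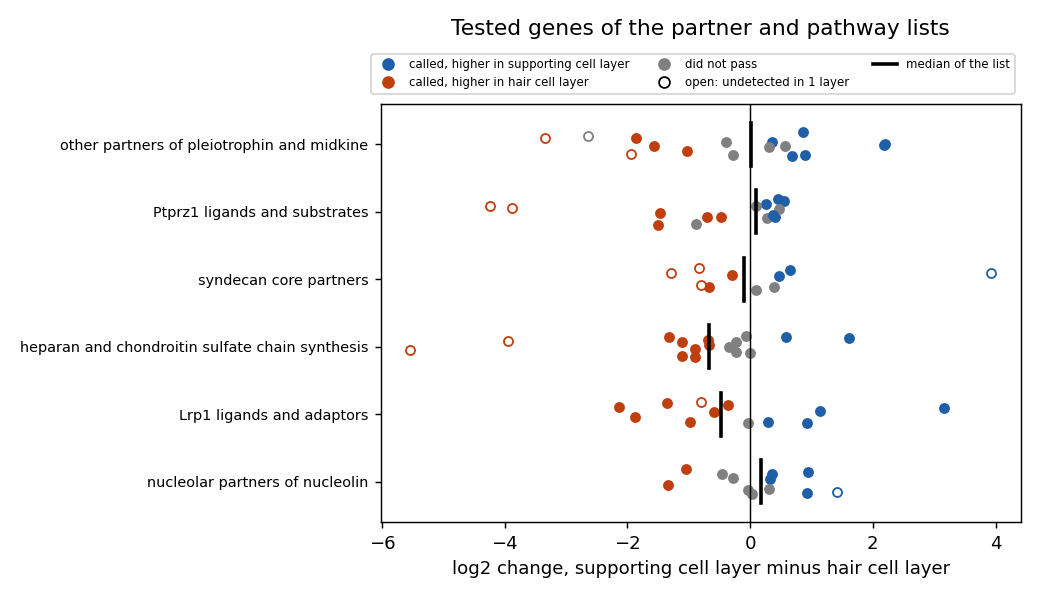
Change of each tested gene at its brightest probe, SC layer minus HC layer on the log2 scale, in the 6 lists of partners and pathway genes; colour gives the call, an open point a gene undetected in 1 layer (its fitted value does not measure the size), and the black bar the list's median. The list of sulfated chain synthesis has its median at -0.68 and every list holds genes called in both directions.

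Enzymes that build or modify the heparan and chondroitin sulfate chains, to which both growth factors bind, included 9 genes called higher in the HC layer. Of these 9, 2 were undetected in the SC layer. Of 34 listed genes 29 had a probe and 16 were tested, with 2 higher in the SC layer, 9 in the HC layer and 5 not passing, and a median change of -0.68, the same with undetected genes held at their limit. The background is 28.2% and 37.2% of all tested genes in the 2 directions. Those higher in the HC layer included the linker enzymes B4galt7 (-1.11 ± 0.08) and B3gat3 (-0.91 ± 0.11), the heparan sulfate 2-O-sulfotransferase Hs2st1 (-1.32 ± 0.10) and the chondroitin polymerizing factor Chpf (-1.11 ± 0.09). Sulf1, which removes 6-O-sulfate groups from heparan sulfate, was undetected in the SC layer and higher in the HC layer by an approximate limit of 4.70-fold. Csgalnact2, also among the 9, was undetected in the SC layer, with an approximate limit of 1.66-fold. The linker galactosyltransferase B3galt6 went the other way, at 89.0 and 85.3 against 289.0 and 247.6 (1.62 ± 0.11). The lists of partners and enzymes were chosen for their known biology with earlier results of these arrays in view.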

How the data were processed

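RNA of the 2 crista layers was measured on 2 arrays each. Per the file headers, the scanner software was CodeLink Expression Analysis 4.0.0.23520. The deposited raw intensity already has the local background taken off, so values below 0 occur, and the deposited normalized intensity is the raw value over the array's median. Any later step is not stated in the sources used here. The deposited series table served to match probes to platform annotation, through the 3 columns that equalled the scanner values in all 35116 uniquely matched rows. The column of supporting cell layer replicate 2 equalled them in 3 rows and was not used. Current symbols came from RefSeq (GRCr8), by gene identifier for 16721 probes and by accession for 192.

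Control spots and contaminated, irregular or failed spots were left out. Raw intensities were quantile-normalized, raised to a floor of 0.1 of the median and taken to log2 values. Probes above background on at least 2 of 4 arrays were tested with limma 3.58.1 in R 4.3.3 (lmFit, eBayes, two-sided, Benjamini-Hochberg adjustment). A limit of fold sets the brighter layer's mean against a limit for each array of the other layer. That is the higher of the array's lowest detected signal (13.9, 18.5, 26.6 and 28.3) and the probe's own. Detection is called spot by spot, and an undetected spot can exceed that lowest signal, as Alpl did at 35.7 on HC layer array 1. The limits are therefore approximate. A gene undetected in 1 layer passed the filter through the other layer alone, so its call is read with its limit. The normalization and limma steps were run on simulated data with few changed probes and arrays of equal brightness. Those runs do not test the steps at the share of probes called here. The brightest tested probe stands for a gene. The named genes are all member probes, up to 5 of the largest called changes per list among genes detected in both layers and 9 binding partners; other named genes were chosen after values were seen. Members and lists were chosen with earlier results of these data known.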

Additional observations from a re-analysis of the deposited data

How the results depend on the processing

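Of 155 values of the 11 member probes under other settings, 120 kept their direction and side of the threshold; Ptn kept both in the 13 run, and was not tested among probes detected on all 4 arrays. Without normalization between arrays, a setting added after the data were seen, the sign turned for Lrp1 (-0.48), the bright Ncl probe (0.00; -0.0029), Ptprz1 GE20161 (-0.50) and Sdc2 GE21842 (-0.33). The mean over probes turned Ptprz1 (-1.02) and Sdc2 (-0.20), since their probes disagree. Midkine, near 0, turned with median scaling (0.086), the scanner software's normalized values (0.12) and lay between -0.14 and 0.075 when arrays were left out. With an offset of 50 the Ptn change was 1.14, since the offset shrinks changes of dim probes. With the scanner software's values 1 member was called at its brightest probe, Ptn (Ptprz1 GE21891 also passed), and 24 genes of the pathway lists (main values 4 and 59); without a filter on dim probes the lists had 29. Over all probes, 6871 and 6654 were called under these settings (main value 11112), and 7229 to 10009 with 1 array left out, the fewest without hair cell layer replicate 1 (33 to 52 genes of the pathway lists, 3 or 4 members). The cause of these losses was not tested. On the scanner software's values the SE was 0.46 at every tested member probe. There Sdc3 changed by 0.92 and Sdc4 by -0.74, beside main values of 0.81 ± 0.07 and -0.90 ± 0.07. With the replicate number as a block 8701 probes and 3 members were called, Ncl being lost. Same-numbered deviations correlated at -0.03 across probes. With 1 difference per layer, this does not settle whether same-numbered arrays share an origin. The files give no spot mean without background subtraction, so that alternative was not run. Signal over background limits Sdc1, both Ptn probes, Lrp1 GE1162873, 2 Sdc3 probes and the dimmer Ptprz1 probe.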
